A study of Mus musculus with 17 samples.

Results

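The genes described here are 37 imprinted genes of the mouse, chosen as a list by name and found by identifier among the 55335 genes counted in each library. They were measured by bulk RNA sequencing of 2 stromal populations sorted from the bone fraction: skeletal stromal/stem cells (SSCs) and the more differentiated osteoprogenitor cells (OPCs). Both gates took cells without the blood and endothelial antigens CD45, TER119 and CD31 and with CD51. SSCs carried Sca-1 and PDGFRα, whereas OPCs lacked Sca-1 and could be positive or negative for PDGFRα. The mice were female littermates of 8 to 12 weeks with 3 genotypes: wild type (WT, Cxcr4+/+), heterozygous (+/1013, Cxcr4+/1013) and homozygous (1013/1013, Cxcr41013/1013) for a knock-in allele. The 1013 allele is present in every cell from the germ line and removes the end of the C-terminal tail of the chemokine receptor CXCR4, which lengthens its signalling, so that effects on the sorted cells and on their surroundings cannot be told apart. Each library came from a pool of 3000 cells from 3 mice, with 3 libraries for each genotype and cell type but 2 for 1013/1013 SSCs.

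An imprinted gene is transcribed mainly from the copy inherited from one parent, because DNA methylation laid down in the egg or sperm at a control region is kept on that copy in body cells. Imprinted genes lie in clusters in which paternally and maternally expressed genes and long noncoding RNAs alternate, and many of them regulate fetal growth, stem cell quiescence and the use of nutrients. Several are high in embryonic mesenchyme and are switched down after birth, and some are imprinted only in certain tissues such as brain or placenta. Of the 37 genes, 21 are known as paternally expressed and 16 as maternally expressed. The counts do not tell the parental copies apart, so every value below is the sum over both copies, and loss of imprinting cannot be seen in them.

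Promoters are shown for 5 of the 9 genes called between the cell types: Meg3, Mest, Peg3, Grb10 and Slc38a4. Each line gives the 250 bases before 1 RefSeq start of the gene (build GRCm38.p6), 5′ to 3′ on the gene's own strand, and the capitals mark CpG dinucleotides, the sites at which DNA methylation is laid down.
Meg3 (chr12:109540746-109540995, plus strand): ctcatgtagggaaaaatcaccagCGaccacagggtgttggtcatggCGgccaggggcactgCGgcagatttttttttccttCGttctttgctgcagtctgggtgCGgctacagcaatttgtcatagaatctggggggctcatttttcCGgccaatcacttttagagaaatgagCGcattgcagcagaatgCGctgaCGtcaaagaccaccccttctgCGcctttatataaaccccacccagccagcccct
Mest (chr6:30737800-30738049, plus strand): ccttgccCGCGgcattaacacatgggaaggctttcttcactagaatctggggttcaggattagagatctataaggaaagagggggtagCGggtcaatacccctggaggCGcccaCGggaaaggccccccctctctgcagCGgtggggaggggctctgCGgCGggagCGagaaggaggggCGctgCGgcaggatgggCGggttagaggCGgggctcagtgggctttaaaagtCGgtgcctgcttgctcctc
Peg3 (chr7:6730420-6730669, minus strand): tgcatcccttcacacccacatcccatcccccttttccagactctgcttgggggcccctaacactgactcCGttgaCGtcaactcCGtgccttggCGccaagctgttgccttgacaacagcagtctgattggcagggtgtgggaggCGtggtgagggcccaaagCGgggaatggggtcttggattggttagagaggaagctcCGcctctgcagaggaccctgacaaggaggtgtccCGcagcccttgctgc
Grb10 (chr11:12037421-12037670, minus strand): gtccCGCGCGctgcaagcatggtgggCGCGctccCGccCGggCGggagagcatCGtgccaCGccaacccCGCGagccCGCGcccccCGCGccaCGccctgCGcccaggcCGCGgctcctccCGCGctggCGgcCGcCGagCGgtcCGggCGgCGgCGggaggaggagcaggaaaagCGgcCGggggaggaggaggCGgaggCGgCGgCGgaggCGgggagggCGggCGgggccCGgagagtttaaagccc
Slc38a4 (chr15:97055957-97056206, minus strand): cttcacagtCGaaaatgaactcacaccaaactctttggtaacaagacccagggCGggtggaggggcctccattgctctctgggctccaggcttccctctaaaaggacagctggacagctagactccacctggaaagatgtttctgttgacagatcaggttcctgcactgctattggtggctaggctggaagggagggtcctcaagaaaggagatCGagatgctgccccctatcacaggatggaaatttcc
The Grb10 window held 40 CpG sites, the Mest window 14, the Meg3 window 10, the Peg3 window 8 and the Slc38a4 window 3. A promoter was found for 29 of the 37 genes (41 starts), with a median of 8 CpG sites against 6 over all 32851 promoters. The letters TGCCGC, read on both strands, are the motif bound by ZFP57, a protein that keeps methylation at imprinted control regions. They occurred in 17.1% of the member windows and in 8.68% of all windows, with 2 matches in the Mest window and 1 in the Meg3 window. The 7 member windows with a match belong to 6 genes, because 2 largely overlapping Mest windows hold the same matches. Methylation was not measured in these cells, and a match or its lack says nothing of binding.

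H19, Mest and Meg3, described below, are hosts of miRNA hairpins, as is Mirg, which stayed under 1 normalised CPM in all libraries. Rtl1, at 0 in all libraries, overlaps miRNA hairpins that lie mostly on the opposite strand. The mature miRNAs of the 3 hosts with higher levels are shown because a reader may take the level of the host RNA for theirs; the capitals mark the seed, bases 2 to 8.
miR-675-5p (H19): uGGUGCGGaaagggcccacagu
miR-675-3p (H19): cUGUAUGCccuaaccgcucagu
miR-335-5p (Mest): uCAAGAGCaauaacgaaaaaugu
miR-335-3p (Mest): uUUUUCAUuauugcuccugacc
miR-770-5p (Meg3): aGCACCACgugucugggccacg
miR-770-3p (Meg3): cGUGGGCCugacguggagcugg
No seed is shared between these 6 sequences, which are from RefSeq. The libraries were made from polyadenylated transcripts with a minimum read length of 50 bp, so mature miRNAs were not measured. The rows of Mir675 and Mir770 were at 0 in all 17 libraries, and Mir335 reached at most 4 counts.

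Levels are given as normalised CPM, which scales the counts of a library to a common total with a factor from the trimmed mean of M values (TMM) over all 17 libraries. OPC libraries held between 64099849 and 92683497 counts on genes and SSC libraries between 44217695 and 50509592. The limit of detection was set at 3 counts, which is 0.0407 to 0.0628 normalised CPM, and it covers counting error only because amplified copies were not marked. The paper calls the libraries of a group biological replicates, each a pool of 3 mice, without saying outright whether pools share mice. The p-values measure the spread between these pools. The gate showed in the RNA: Ly6a, which encodes Sca-1, was at 386 to 1450 normalised CPM in SSCs and at 0.569 to 12.4 in OPCs, and the summed level of 6 osteoblast lineage genes was 97560 to 304200 in OPCs and 1931 to 12100 in SSCs. Several libraries stood apart. The summed level of 10 leukocyte genes was 8969 in WT OPC replicate 3, 6985 in 1013/1013 OPC replicate 2 and 2952 in WT SSC replicate 3, against 39.1 to 876 in the other 14. In SSCs, 15748 genes had a count in 1013/1013 replicate 1 and 17808 to 19227 in the other 4 mutant libraries, against 21449 to 22599 in WT. The share of reads on no gene was 3.68% to 4.15% in WT SSCs and 1.5% to 2.69% in mutant SSCs.

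The 37 genes ranged from 0 to 493 normalised CPM (the map of levels by library). The members took 0.0352% to 0.116% of the counts of a library. Of them, 9 were above 10 normalised CPM in all 17 libraries, 10 passed that level in some libraries only, and 18 never reached it. The 2 genes at 0 in every library were Rian, a long noncoding RNA that hosts small nucleolar RNAs, and Rtl1, a retrotransposon-derived gene of the placenta. Dlk1, which encodes a Notch-related inhibitor of adipocyte differentiation, was under 3 counts in all 17 libraries, which allows at most 0.0407 to 0.0628 normalised CPM. Per kilobase of exon, Cdkn1c led WT OPCs at 29.1 ± 19.7 normalised CPM per kb (SD, n = 3), before Grb10 at 20.9 ± 10.1 and Mest at 13.1 ± 5.1. In WT SSCs the highest levels per kilobase were those of Ndn at 19.1 ± 4.84, Cdkn1c at 12.6 ± 3.7, Sgce at 8.84 ± 2.14 and Grb10 at 8.61 ± 1.22. In 1013/1013 SSCs (n = 2) Ndn stood at 54.1 ± 36.1, Cdkn1c at 24.7 ± 2.36 and Sgce at 17.5 ± 2.83. The spreads of these neighbours in the order overlapped in OPCs, and in WT SSCs Sgce and Grb10 differed by less than their SD.

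**Figure D1:**
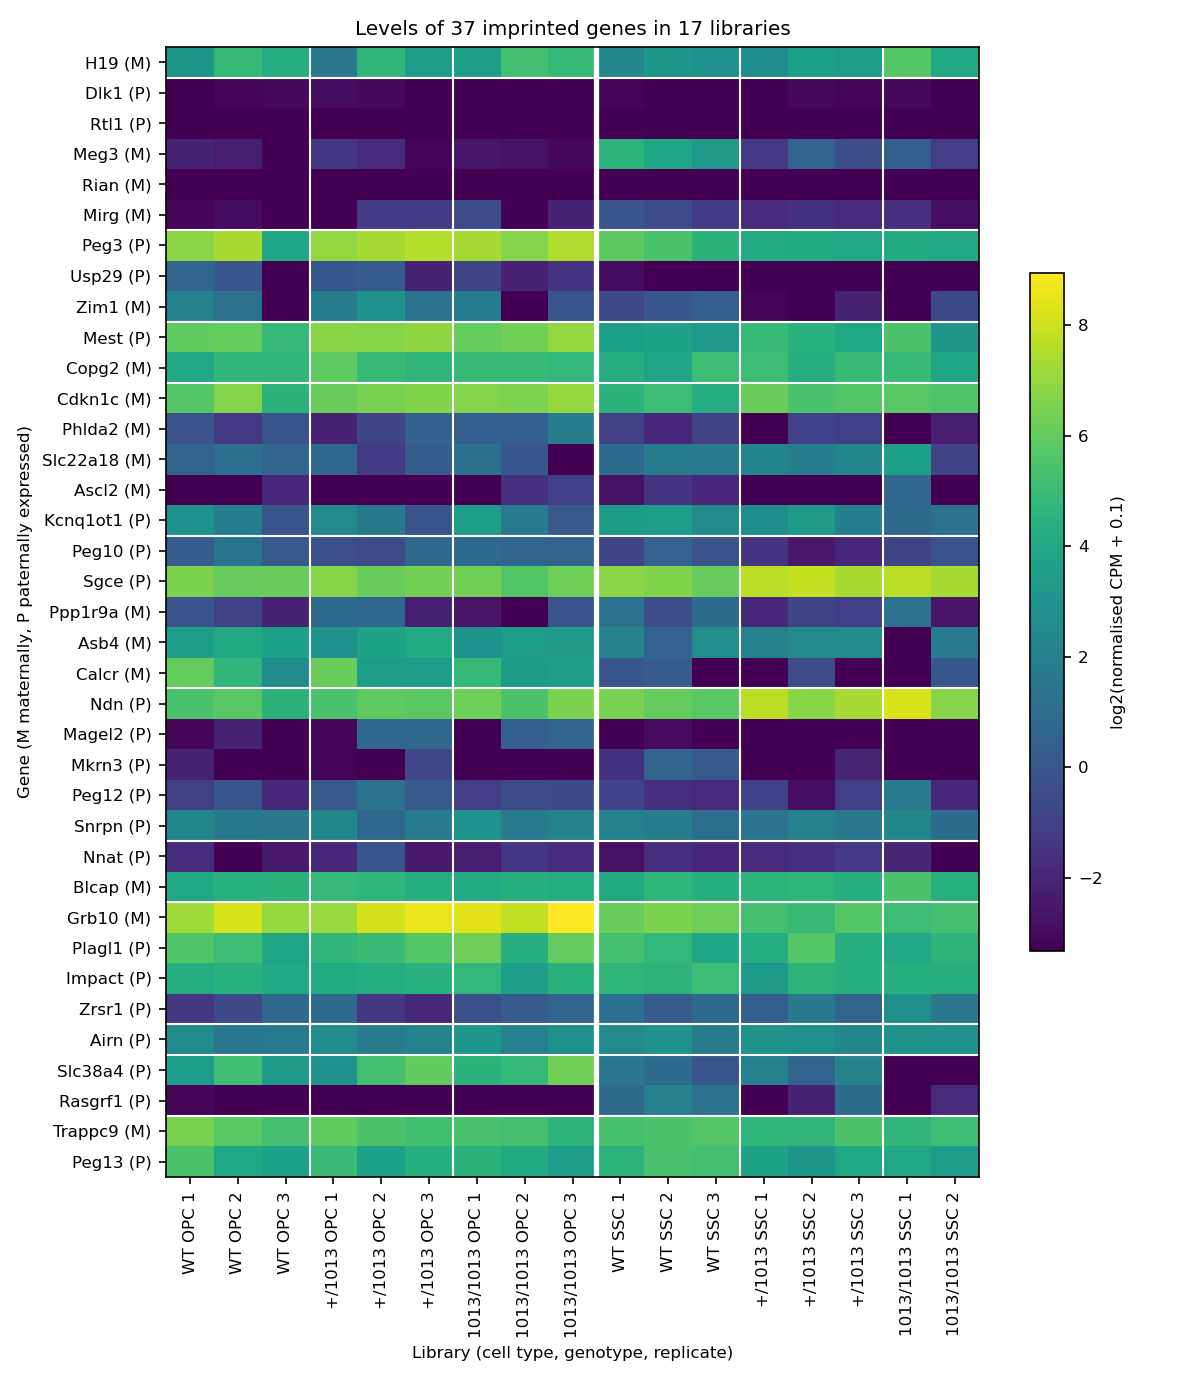
Levels of the 37 imprinted genes (rows, grouped by cluster) in the 17 libraries (columns, OPCs left and SSCs right of the thick line), as log2 of normalised CPM plus 0.1. Rian, Rtl1 and Dlk1 stay dark throughout, and Meg3 is bright in the 3 WT SSC libraries. Grb10 is brighter in every OPC library than in every SSC library. The same holds for Peg3 and Mest except in WT OPC replicate 3, which is not above all SSC libraries.

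SSCs and OPCs were compared within each genotype to ask how the cells differ before and after the step to the osteoblast lineage. In WT, Meg3 rose in SSCs while Mest and Slc38a4 fell, and these were the only 3 of 34 tested members called (8.82%, against 11.4% of all 20238 genes tested, 5.55% higher and 5.86% lower). A gene was called when it changed at least 1.5-fold with an adjusted p under 0.05 in the quasi-likelihood test of edgeR, adjusted by Benjamini-Hochberg over all genes. In +/1013 mice 8 members were called, of which 2 rose in SSCs (Sgce and Ndn) and 6 fell (Grb10, Peg3, Mest, Slc38a4, Calcr and Usp29), or 23.5% against 12.5% of all genes (6.44% higher and 6.02% lower). In 1013/1013 mice 3 rose (Sgce, Ndn and Meg3) and 3 fell (Slc38a4, Grb10 and Peg3), or 17.6% against 13.1% (6.94% higher and 6.12% lower). The median log2 change of the tested members was -0.08 in WT, -0.57 in +/1013 and -0.48 in 1013/1013, beside 0.17, 0.00 and -0.20 over all genes, and it stayed at these values with members at 0 in a group set to their bound. In all, 9 members were called in at least 1 genotype, 6 paternally and 3 maternally expressed, and all 9 kept their direction in the 3 genotypes. Slc38a4 was the 1 member called in all 3. The libraries of the 2 cell types did not overlap for 12, 15 and 15 of the 34 members (35.3%, 44.1% and 44.1%), beside 37.9%, 35.1% and 40.2% of all genes.

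Meg3 is a maternally expressed long noncoding RNA of the Dlk1-Dio3 cluster with growth-restraining activity. It was at 24.0, 14.6 and 9.79 normalised CPM in WT SSCs, and at 0.136, 0.0975 and 0 in WT OPCs. The lowest WT SSC library thus lay far above every OPC library, and the log2 difference was 7.63 ± 1.37 (SE; edgeR adjusted p = 0.0030). In +/1013 mice the SSC libraries were at 0.308, 1.40 and 0.664 and the OPC libraries at 0.292, 0.175 and 0.0142, with a log2 difference of 2.29 ± 1.08 (edgeR adjusted p = 0.19). In 1013/1013 mice the SSC libraries were at 1.23 and 0.372 and the OPC libraries at 0.0693, 0.0474 and 0.0183, with a log2 difference of 4.07 ± 1.24 (edgeR adjusted p = 0.044). Meg3 was the only member tested whose 8 SSC libraries all lay above the 9 OPC libraries, a pattern that 5.71% of all genes tested had. Its neighbour Mirg, another maternally expressed noncoding RNA, reached 0.348 to 0.851 in WT SSCs and 0 to 0.0325 in WT OPCs without being called by edgeR, while DESeq2 called it in WT, as did the bias-adjusted quasi-likelihood test and a fit of only the 2 groups. Part of Meg3 (1228 exonic bases) is shared with an opposite-strand gene, and the library kit does not mark strand.

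Grb10, which encodes an adaptor that dampens insulin and IGF receptor signalling, and Peg3, a zinc finger protein tied to growth and to mesenchymal progenitors, had the highest mean levels of the members in OPCs in normalised CPM, not divided by length. Grb10 was at 148, 296 and 127 in WT OPCs, 134, 275 and 378 in +/1013 OPCs and 339, 228 and 493 in 1013/1013 OPCs. In SSCs it was at 69.6, 90.8 and 74.5 in WT, 39.7, 31.7 and 51.7 in +/1013, and 34.4 and 38.5 in 1013/1013. All 8 SSC libraries were below all 9 OPC libraries, as they were for Slc38a4, Calcr and Asb4 among the 34 members (5.17% of all genes). The log2 difference of Grb10 was -1.28 ± 0.40 in WT, short of the threshold (edgeR adjusted p = 0.055), -2.68 ± 0.42 in +/1013 (0.00093) and -3.28 ± 0.51 in 1013/1013 (0.0010). Peg3 was at 111 and 160 in WT OPC replicates 1 and 2 but at 14.9 in the leukocyte-rich replicate 3, and at 103 to 190 in the 6 mutant OPC libraries. In SSCs Peg3 was at 57.9, 44.7 and 23.9 in WT and between 15.7 and 17.7 in the 5 mutant libraries. WT OPC replicate 3 was thus below all WT SSC libraries, and the log2 difference in WT was -1.18 ± 0.57 (edgeR adjusted p = 0.20). It was -3.19 ± 0.61 in +/1013 (0.0039) and -3.14 ± 0.72 in 1013/1013 (0.012). Usp29, transcribed from the other side of the Peg3 start, was at 0.91 and 1.49 in WT OPC replicates 2 and 1, and at 0 in replicate 3. It was at 0.953, 1.09 and 0.127 in +/1013 OPCs and at 0 in all 3 +/1013 SSC libraries, which makes it at least 13.4-fold lower against a floor of 3 counts per library (called, edgeR adjusted p = 0.041).

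Mest, a hydrolase-like gene of adipose expansion, was at 60.7, 65.5 and 28.5 in WT OPCs and at 12.4, 13.2 and 9.13 in WT SSCs. The groups did not overlap, and the log2 difference was -2.16 ± 0.51 (edgeR adjusted p = 0.014). In +/1013 mice it was -2.27 ± 0.51 (edgeR adjusted p = 0.010), and in 1013/1013 mice, with SSC libraries at 45.8 and 8.12, it was -1.74 ± 0.58 (0.065). Copg2, which overlaps the end of Mest on the opposite strand by 912 exonic bases and encodes a coatomer subunit, lay between 14.1 and 59.5 in all 17 libraries and was called in no genotype. The ratio of Mest to Copg2 was 1.12 to 4.67 in OPC libraries and 0.264 to 1.46 in SSC libraries.

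Slc38a4 encodes an amino acid transporter that is imprinted in placenta. It was at 10.6, 36.4 and 9.73 in WT OPCs, 7.54, 40.5 and 62.7 in +/1013 OPCs and 23.9, 28.7 and 81.1 in 1013/1013 OPCs. The SSC levels were 2.71, 1.87 and 0.869 in WT and 4.11, 1.49 and 4.35 in +/1013, and both 1013/1013 SSC libraries were at 0. No SSC library reached the lowest OPC library. The log2 difference was -3.38 ± 0.85 in WT (edgeR adjusted p = 0.022) and -3.47 ± 0.85 in +/1013 (0.018). In 1013/1013 mice it was at least 804-fold lower in SSCs against a floor of 3 counts per library (edgeR adjusted p = 0.00046). Calcr, the calcitonin receptor gene, was at 5.88 to 70.8 in OPCs and at 0 to 1.03 in SSCs, and was called in +/1013 mice (log2 -7.22 ± 2.05, edgeR adjusted p = 0.034) but not in WT (0.069) or 1013/1013 (0.14).

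Sgce and Ndn went the other way. Sgce encodes epsilon-sarcoglycan, a membrane protein of the dystrophin complex, and Ndn encodes necdin, a growth suppressor kept high in quiescent stem cells. Sgce was at 50.4 to 105 in the 9 OPC libraries, at 113, 99.4 and 68.8 in WT SSCs, at 210, 232 and 165 in +/1013 SSCs, and at 207 and 164 in 1013/1013 SSCs. The cell types overlapped in WT (log2 0.29 ± 0.25, edgeR adjusted p = 0.48) and separated in +/1013 (1.23 ± 0.25, 0.0056) and 1013/1013 (1.44 ± 0.27, 0.0038). Ndn was at 43.2, 55.9 and 23.7 in WT OPCs and 90.4, 65.2 and 55.9 in WT SSCs (log2 0.78 ± 0.41, edgeR adjusted p = 0.23). In +/1013 mice OPCs were at 44.6, 60.1 and 56.7 and SSCs at 206, 109 and 155 (1.55 ± 0.41, edgeR adjusted p = 0.025). In 1013/1013 mice OPCs were at 75.6, 45.2 and 91.6 and SSCs at 294 and 106 (1.5 ± 0.45, edgeR adjusted p = 0.041).

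**Figure D2:**
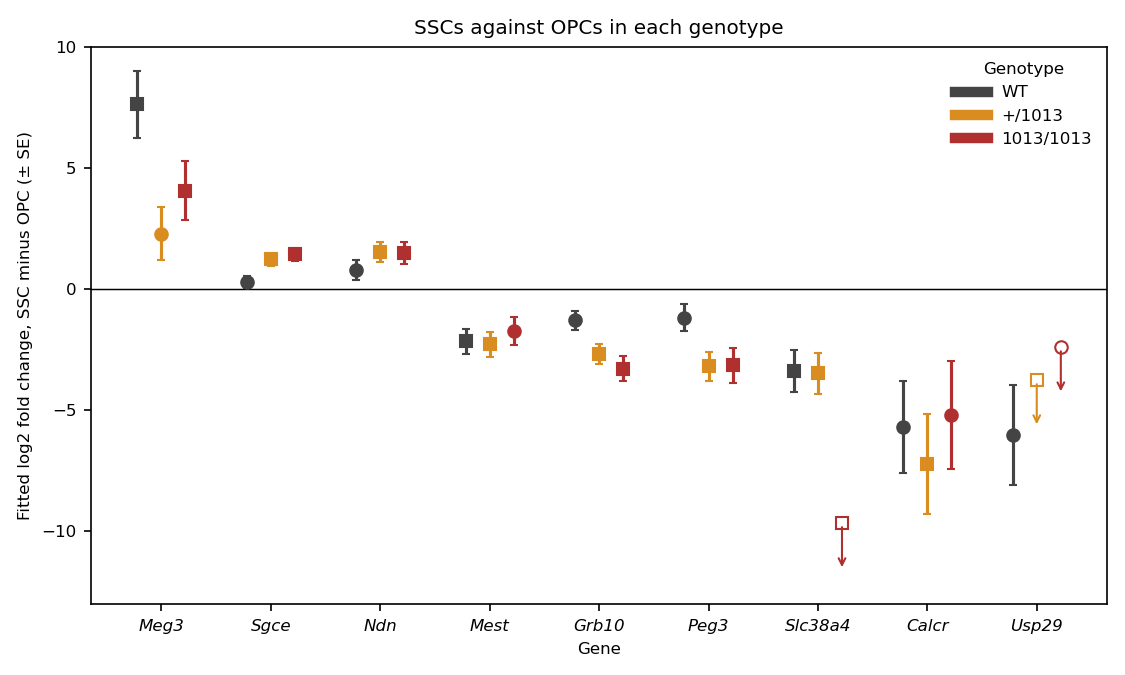
Fitted log2 fold change of SSCs against OPCs with its standard error for the 9 members called in at least 1 genotype (squares called, circles not called). Open symbols with arrows mark lower bounds of the fold where every SSC library was at 0. Meg3, Sgce and Ndn lie above 0 and the other 6 genes below 0 in all 3 genotypes.

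The calls differed in how far they rested on single libraries. Grb10 in +/1013 and 1013/1013, Peg3, Sgce and Mest in +/1013, Meg3 in WT and Slc38a4 in 1013/1013 were called under every alternative that gave a value. Without WT OPC replicate 3, WT calls numbered 6, with Cdkn1c, Peg3 and Usp29 added. They also numbered 6 without either 1013/1013 SSC library, where Asb4, Calcr and Rasgrf1 were added. Without the 3 leukocyte-rich libraries the WT calls were Meg3, Cdkn1c and Peg3, and Mest (log2 -2.30, edgeR adjusted p = 0.063) and Slc38a4 (log2 -3.36, 0.10) no longer passed. WT counts fell to 1 without WT OPC replicate 2 or WT SSC replicate 3. Shares of all genes called in the fits with libraries left out are not given here. In +/1013 mice the calls fell from 8 to 5 without OPC replicate 1, SSC replicate 1 or SSC replicate 3, and to 4 without OPC replicate 3. In 1013/1013 mice, without SSC replicate 1, Ndn had a log2 difference of 0.58 (edgeR adjusted p = 0.57) and Meg3 one of 2.97 (0.26). Both genes were also lost without any of the 3 1013/1013 OPC libraries, +/1013 OPC replicate 2, +/1013 SSC replicate 3 or WT SSC replicate 2 (edgeR adjusted p = 0.051 to 0.13). Ndn was lost without +/1013 OPC replicate 3 too (0.050), and Meg3 without WT OPC replicate 2 (0.053) or WT SSC replicate 1 (0.070) or 3 (0.055). Mest in WT was lost without OPC replicate 2 (edgeR adjusted p = 0.058) or SSC replicate 3 (0.061), and Slc38a4 in WT without OPC replicate 2 (0.099) or SSC replicate 1 (0.050), 2 (0.076) or 3 (0.083). In +/1013 mice Slc38a4 was lost without OPC replicate 3 or SSC replicate 1 or 2 (edgeR adjusted p = 0.056 to 0.072), and Ndn without any OPC replicate or SSC replicate 1 or 3 (0.053 to 0.097). Calcr was lost without OPC replicate 1 or 3 or SSC replicate 1 or 3 (0.051 to 0.10). Usp29 was lost without any of the 6 +/1013 libraries, WT OPC replicate 1 or 2, 1013/1013 OPC replicate 1 or 3, or WT SSC replicate 1 (0.050 to 0.11). Peg3 in 1013/1013 was lost without SSC replicate 1 (edgeR adjusted p = 0.096) or 2 (0.053).

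Markers of other cells also moved with cell type, with every gene of each list found among the counted genes except 1 of 9 erythroid genes. The summed level of 10 muscle genes was 69.3 to 554 in OPCs and 4.49 to 137 in SSCs, that of 6 Schwann cell genes 120 to 530 and 25.9 to 54.9, and that of 6 cartilage genes 15490 to 99600 and 3348 to 21170. Sums of 9 mural genes were 265 to 1441 in OPCs and 173 to 688 in SSCs, those of 10 endothelial genes 4.35 to 75.8 and 28.4 to 175, and those of 8 erythroid genes 31.3 to 3474 and 128 to 925. Their part in the differences between SSCs and OPCs was not tested. In such bulk samples, fewer cells of a type and less RNA per cell cannot be told apart.

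Within SSCs the genotypes were compared to ask what the mutation changes in these cells. No member was called among 32 tested in +/1013 or in 1013/1013 mice against WT, where 0.0736% and 0.0% of 17659 genes were called by edgeR. At an unadjusted p under 0.05 there were 8 and 11 members (25.0% and 34.4%), beside 17.3% and 18.3% of all genes (3061 and 3224), and DESeq2 called 7 and 9 members among 1396 and 1889 genes in all. Meg3, Grb10, Peg3, Peg13 and Sgce were called by DESeq2 in both mutant genotypes, Cdkn1c and Peg10 in +/1013, and H19, Kcnq1ot1, Mkrn3 and Slc38a4 in 1013/1013. The median log2 change of the members was -0.16 and -0.44, beside -0.11 and -0.23 over all genes. The libraries of +/1013 and WT did not overlap for 15 members (46.9%, beside 31.2% of all genes), and those of 1013/1013 and WT for 17 (53.1%, beside 40.7%). Between the 5 mutant and the 3 WT libraries there was no overlap for 9 of the 32 tested members: 3 were above WT in all mutants (Sgce, Ndn and Cdkn1c) and 6 below (Meg3, Grb10, Peg3, Peg13, Mkrn3 and Mirg). Of all genes 10.2% were above, 10.9% below and 21.1% either.

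Among the genes below WT, Meg3 was at 24.0, 14.6 and 9.79 in WT SSCs and at 0.308 to 1.40 in the 5 mutant SSC libraries. Its mean was 16.1 ± 7.24 (SD, n = 3) in WT, 0.790 ± 0.556 in +/1013 (n = 3) and 0.800 ± 0.605 in 1013/1013 (n = 2). The log2 difference from WT was -4.36 ± 0.81 (SE) in +/1013 (unadjusted p = 0.00077, edgeR adjusted p = 0.11) and -4.30 ± 0.97 in 1013/1013 (0.0024 and 0.12). The other noncoding RNAs of its cluster stayed low: Mirg was at 0.851, 0.614 and 0.348 in WT SSCs and 0.0372 to 0.249 in mutant SSCs. Grb10 was at 69.6 to 90.8 in WT SSCs and 31.7 to 51.7 in mutant SSCs, with log2 differences of -0.95 ± 0.22 (edgeR adjusted p = 0.13) and -1.09 ± 0.25 (0.12). Peg3 was at 23.9 to 57.9 in WT SSCs and 15.7 to 17.7 in mutant SSCs, a difference of -1.30 ± 0.31 (edgeR adjusted p = 0.14) and -1.33 ± 0.36 (0.15). The 5 mutant libraries lay close together for Peg3, and WT libraries spread widely above them. Peg13 is a paternally expressed noncoding RNA in an intron of Trappc9 on the same strand, so unspliced reads of Trappc9 could be counted for it. It was at 24.6, 42.7 and 39.9 in WT SSCs, 13.5, 8.70 and 16.4 in +/1013 SSCs, and 16.8 and 11.0 in 1013/1013 SSCs. Its log2 difference was -1.5 ± 0.35 (edgeR adjusted p = 0.14) and -1.35 ± 0.40 (0.17). Trappc9, which encodes a vesicle tethering subunit, was at 45.6 ± 4.09 (SD, n = 3) in WT SSCs, 32.8 ± 11.6 in +/1013 (n = 3) and 30.5 ± 6.32 in 1013/1013 (n = 2), with 1 mutant library at 46.2 among the WT values. The 3 WT libraries had a Trappc9 to Peg13 ratio of 1.05 to 1.70, and the mutant libraries one of 1.55 to 3.18. Mkrn3, a maternally silenced ubiquitin ligase gene linked to the onset of puberty, was at 0.248 to 1.51 in WT SSCs and at 0 in 4 of the 5 mutant SSC libraries, with 0.140 in the other.

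Among the genes above WT, Sgce was at 68.8 to 113 in WT SSCs and 164 to 232 in mutant SSCs. The log2 difference was 1.09 ± 0.24 in +/1013 (unadjusted p = 0.0019, edgeR adjusted p = 0.13) and 1.00 ± 0.26 in 1013/1013 (0.0051 and 0.14). Its neighbour Peg10, a retrotransposon-derived gene that starts next to Sgce on the other strand, moved otherwise, at 0.495 to 1.36 in WT SSCs, 0.0766 to 0.274 in +/1013 and 0.477 to 0.782 in 1013/1013. The ratio of Sgce to Peg10 was 72.9 to 228 in WT SSCs, 767 to 3025 in +/1013 SSCs and 210 to 434 in 1013/1013 SSCs. The +/1013 ratios rest on only 4 to 16 counts of Peg10 per library. Ndn was at 55.9 to 90.4 in WT SSCs and 106 to 294 in mutant SSCs, with a mean of 157 ± 48.5 (SD, n = 3) in +/1013 and 200 ± 133 (n = 2) in 1013/1013. Cdkn1c encodes p57Kip2, the cyclin-dependent kinase inhibitor that keeps stem cells out of cycle. It was at 23.7, 34.1 and 19.4 in WT SSCs, 73.0, 42.8 and 50.6 in +/1013 SSCs, and 53.8 and 47.0 in 1013/1013 SSCs. Every mutant library was above every WT library, while 30.7% of the exonic bases of Cdkn1c are shared with an opposite-strand gene. Kcnq1ot1, the paternal noncoding RNA of the same cluster that silences Cdkn1c in cis, was at 5.81 to 10.7 in WT SSCs, 3.84 to 9.64 in +/1013 SSCs, and 1.78 and 2.35 in 1013/1013 SSCs. The Cdkn1c to Kcnq1ot1 ratio was 2.35 to 3.34 in WT SSCs, 4.44 to 13.2 in +/1013 SSCs, and 20.0 and 30.3 in 1013/1013 SSCs. These SSC groups did not overlap. In OPCs the ratio was 6.54 to 29.8 in WT, 12.8 to 121 in +/1013 and 8.71 to 132.5 in 1013/1013, with overlap. How many other gene pairs separate in this way was not counted. Kcnq1ot1 is annotated as a single exon of 93092 bases over Kcnq1, so reads from introns of Kcnq1 could be counted for it. The share of reads on no gene was higher in WT than in mutant SSCs, as given above. In each OPC genotype Kcnq1ot1 was highest in replicate 1, which also had the highest share of reads on no gene. The part of that share in these ratios was not tested.

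Homozygous and heterozygous SSCs were compared to ask whether a second mutant copy adds to the first. No member was called by edgeR (0.0% of all genes), and 4 members had an unadjusted p under 0.05 (12.5%, beside 5.53% or 977 of all genes), while DESeq2 called 1 (239 of all genes). Libraries did not overlap for 6 members (18.8%, beside 15.9%). Slc38a4 was at 4.11, 1.49 and 4.35 in +/1013 SSCs and at 0 in both 1013/1013 libraries, at least 59.8-fold lower (unadjusted p = 0.00032, edgeR adjusted p = 0.79). Against WT the 1013/1013 libraries were at least 32.8-fold lower (edgeR adjusted p = 0.084). H19, a maternal growth-restraining noncoding RNA, was at 5.01, 8.76 and 7.34 in WT SSCs, 6.06, 12.6 and 10.9 in +/1013 SSCs, and 52.3 and 15.7 in 1013/1013 SSCs. The log2 difference of H19 was 2.30 ± 0.57 against WT (edgeR adjusted p = 0.13) and 1.83 ± 0.56 against +/1013 (0.79). Without 1013/1013 SSC replicate 1 these were 1.14 (edgeR adjusted p = 0.49) and 0.67 (1.0). Ascl2, a transcription factor gene of the trophoblast, had counts in 1013/1013 SSC replicate 1 alone among the mutant SSC libraries, at 1.67. In WT SSCs it was at 0.0464 to 0.255. Kcnq1ot1 had a log2 difference of -1.64 ± 0.58 and Peg10 one of 1.90 ± 0.98 between the mutants (edgeR adjusted p = 0.79 for both).

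**Figure D3:**
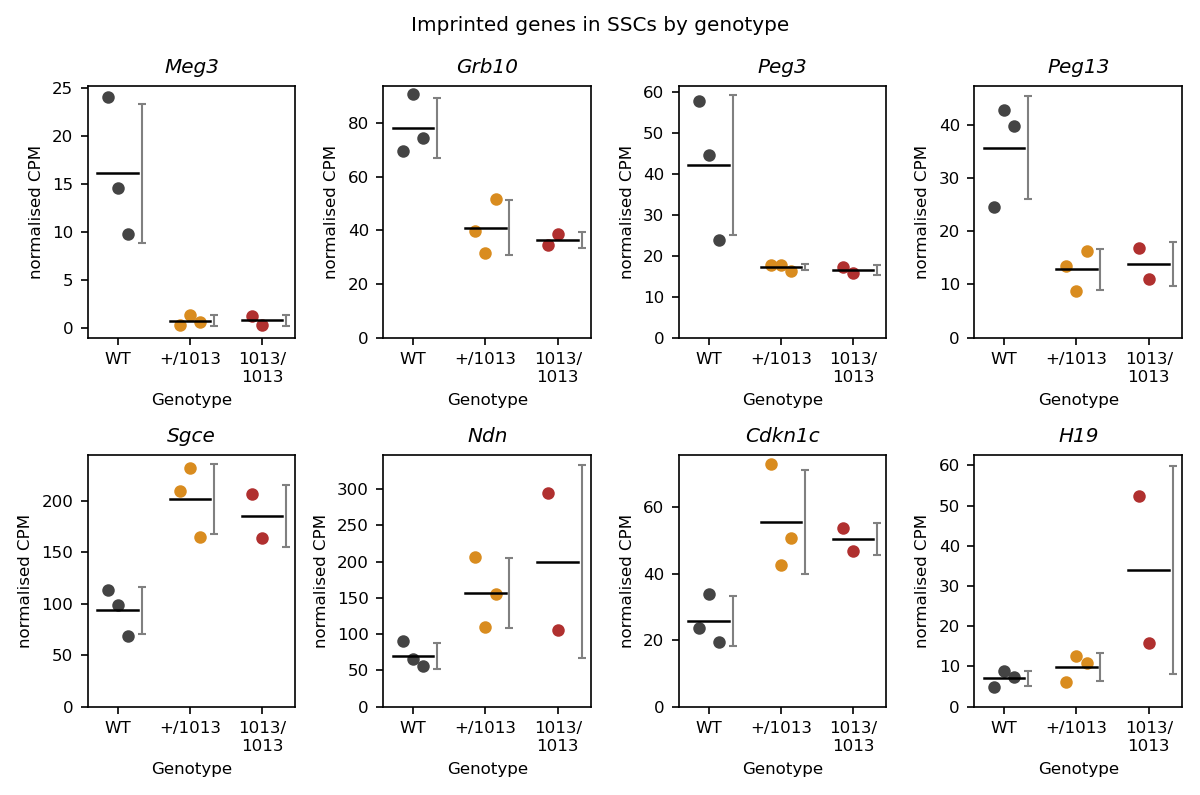
Levels of 8 imprinted genes in each SSC library in normalised CPM, by genotype (points, libraries; black lines, group means; grey bars, mean ± SD, n = 3, 3 and 2). The mutant points lie below all WT points for Meg3, Grb10, Peg3 and Peg13 and above them for Sgce, Ndn and Cdkn1c, while H19 is set apart by 1 library at 52.3.

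Other values moved with genotype in SSCs. The share of reads on no gene and the number of genes with a count separated WT from mutant libraries, as given above, and the summed level of the 6 osteoblast lineage genes was 8123 to 12100 in WT SSCs and 1931 to 4522 in mutant SSCs. Ly6a itself was at 386 to 599 in WT SSCs and 838 to 1450 in mutant SSCs. The other genes of the gate did not rise with it. Itgav, which encodes CD51, was at 49.5 to 59.6 in WT SSCs and 17.8 to 35.8 in mutant SSCs. Pdgfra overlapped, at 339 to 414 in WT SSCs and 341 to 522 in mutant SSCs. Leukocyte, muscle and Schwann sums overlapped between WT and mutant SSCs, apart from +/1013 leukocyte sums of 39.1 to 109 below the WT range of 164 to 2952. Erythroid sums of 128 to 278 in +/1013 SSCs also lay below the WT range of 308 to 925, and those in 1013/1013 SSCs were 129 and 334. The part of these differences in the levels of Meg3, Grb10, Peg3, Peg13, Sgce, Ndn and Cdkn1c was not tested. With 1013/1013 SSC replicate 2 left out, replicate 1 stood alone in its group and was taken to vary like the other groups. H19 was then at a log2 difference of 2.86 against WT and 2.41 against +/1013 SSCs. With replicate 1 left out instead, these differences were 1.14 and 0.67.

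Within OPCs no member was called in any comparison of genotypes, among 30 tested. In +/1013 against WT 0.0% of 16207 genes were called by edgeR, in 1013/1013 against WT 0.00617%, and in 1013/1013 against +/1013 0.0%. Members with an unadjusted p under 0.05 numbered 1, 1 and 0 (beside 2.04%, 3.38% and 3.17% of all genes), and DESeq2 called 0 in each (66, 65 and 78 of all genes). Libraries did not overlap for 2, 3 and 1 members (6.67%, 10% and 3.33%), beside 5.28%, 7.61% and 7.34% of all genes. The median log2 change of the members was 0.22, 0.37 and -0.06, beside 0.00, 0.01 and 0.02 over all genes. Mest had the smallest p against WT: it was at 60.7, 65.5 and 28.5 in WT OPCs, 110, 104 and 122 in +/1013 OPCs, and 65.4, 81.8 and 122 in 1013/1013 OPCs. The +/1013 libraries were all above WT (log2 1.11 ± 0.34, unadjusted p = 0.011, edgeR adjusted p = 1.0). The 1013/1013 libraries overlapped with WT (0.80 ± 0.34, unadjusted p = 0.045, edgeR adjusted p = 1.0). Copg2 in +/1013 OPCs was 0.74 ± 0.34 above WT on the log2 scale, with 1 library at 59.5 and the others at 30.3 and 26.1. Peg12, Magel2 and Mirg, which followed by p in +/1013, were at most at 2.45, 1.67 and 0.354 normalised CPM in WT and +/1013 OPCs.

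In 1013/1013 OPCs the next members by p were Trappc9 (log2 -0.77 ± 0.34), Ndn (0.79 ± 0.36), Cdkn1c (0.87 ± 0.45) and Grb10 (0.89 ± 0.48), each with an edgeR adjusted p of 1.0. Cdkn1c was at 51.7, 103 and 23.7 in WT OPCs, 69.8, 89.0 and 97.7 in +/1013 OPCs, and 102, 95.6 and 128 in 1013/1013 OPCs. The WT and mutant values overlapped, as they did for Trappc9, Ndn and Grb10. WT OPC replicate 3 was the lowest of the 3 WT libraries for Mest, Cdkn1c, Ndn, Grb10, Peg3 and Slc38a4, and it was the library with the highest leukocyte sum. Without it Mest in +/1013 was at a log2 difference of 0.82 (edgeR adjusted p = 1.0). Between 1013/1013 and +/1013 OPCs the smallest p-values were those of Peg12, Phlda2, Blcap, Sgce and Asb4 (unadjusted p = 0.11 to 0.23), with log2 differences of -1.49 ± 0.83, 1.61 ± 0.98, -0.37 ± 0.24, -0.33 ± 0.24 and -0.46 ± 0.35.

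**Figure D4:**
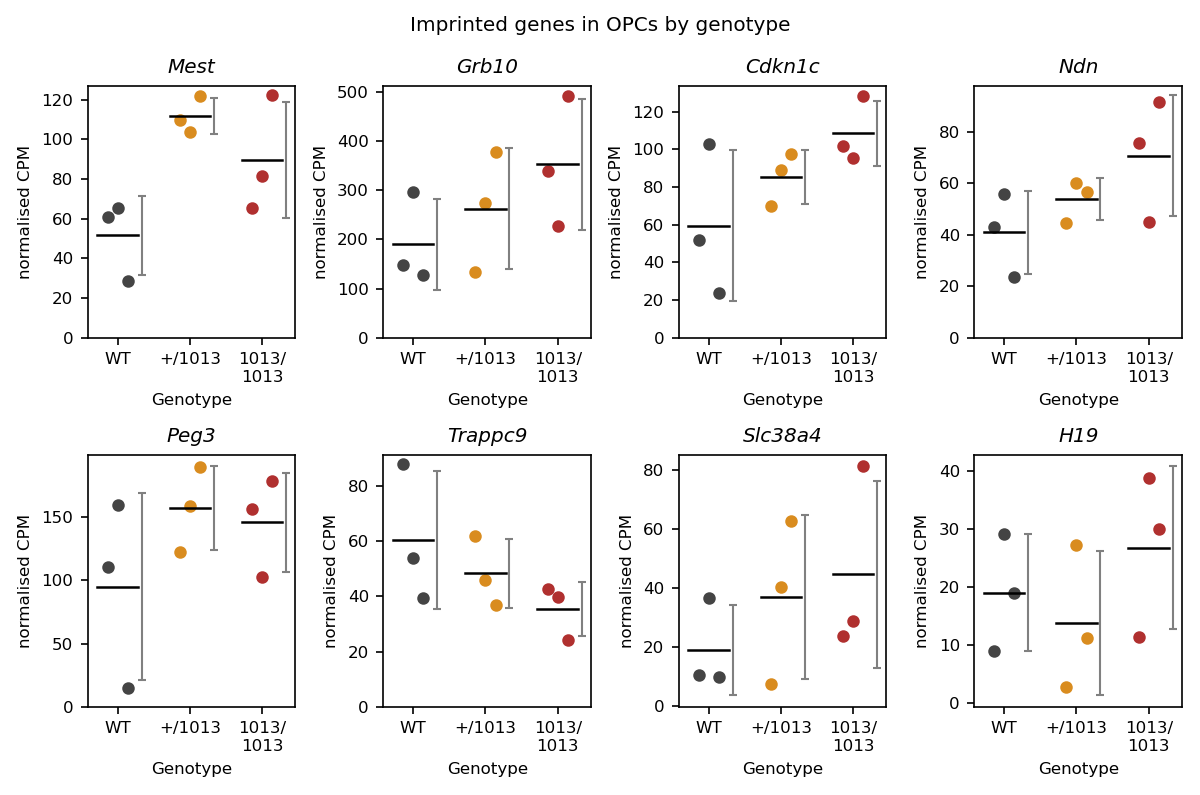
Levels of 8 imprinted genes in each OPC library in normalised CPM, by genotype (points, libraries; black lines, group means; grey bars, mean ± SD, n = 3). WT and mutant points overlap except for Mest in +/1013 OPCs, and 1 WT point lies at 14.9 for Peg3.

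Whether the genotype effect differed between SSCs and OPCs was tested as an interaction over all 17 libraries. No member was called by edgeR among 34 tested, beside 0.084% of all genes for +/1013 and 0.153% for 1013/1013; 5 members in each had an unadjusted p under 0.05 (10.6% and 15.0% of all genes), and DESeq2 called 1 (Meg3) and 3 (Sgce, Grb10 and Slc38a4), among 502 and 1274 genes in all. For +/1013 the smallest p was that of Meg3, with a log2 difference of effects, SSCs minus OPCs, of -5.34 ± 1.57 (unadjusted p = 0.0043, edgeR adjusted p = 0.33). Next came Sgce at 0.93 ± 0.35, Peg3 at -2.01 ± 0.80, Grb10 at -1.40 ± 0.56 and Mirg at -5.33 ± 2.40 (edgeR adjusted p = 0.41 to 0.46). For 1013/1013 Slc38a4 came first (edgeR adjusted p = 0.066), with SSCs at 0 and OPCs at 23.9 to 81.1, so that its fitted size is not a measure of the change. It was called without +/1013 OPC replicate 1. It was also called, together with Asb4, without 1013/1013 SSC replicate 2, which left 1 library in that group. Grb10 followed at -2.0 ± 0.61 (edgeR adjusted p = 0.19), Sgce at 1.14 ± 0.37 (0.20), Peg3 at -1.97 ± 0.86 (0.31) and Mirg at -6.05 ± 2.68 (0.32). For Grb10 the means ran in opposite directions in the 2 cell types, from 190 ± 92.2 to 353 ± 133 in OPCs and from 78.3 ± 11.1 to 36.4 ± 2.87 in SSCs between WT and 1013/1013 (SD).

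By parent of origin, no group moved as a whole in SSCs. Of 17 paternal members tested in SSCs, 9 were higher and 8 lower in +/1013 than in WT, and 7 and 10 in 1013/1013, while of 15 maternal members 6 were higher and 9 lower in both. In OPCs 13 of 17 paternal members and 6 of 13 maternal members were higher in 1013/1013 than in WT. The share of all genes that were higher is not given here, and their median log2 change was 0.01. The leukocyte-rich WT OPC replicate 3 was the lowest WT library for the paternal members Mest, Ndn, Peg3 and Slc38a4. Within clusters, all 3 genes of the Peg3 cluster had lower estimates in SSCs than in OPCs in each genotype. Trappc9 and Peg13 had lower estimates than WT in each mutant group, in OPCs as well as in SSCs. Levels within a cluster could differ widely. In the Prader-Willi cluster of chromosome 7, Ndn was at 55.9 to 294 in SSCs while Magel2, its neighbour and relative, was at most 0.0299, and Snrpn, which encodes a small nuclear ribonucleoprotein and shares exons with Snurf and Gm38393, stayed at 1.92 to 4.71. In the Nnat-Blcap cluster, Blcap was at 15.6 to 43.7 in all 17 libraries and Nnat, a membrane protein gene in its intron, at most 0.855. Other members were measured in all 17 libraries: Impact, a regulator of the amino acid response, was at 9.63 to 34.4, Plagl1, a zinc finger gene that regulates other imprinted genes, at 14.1 to 76.6, and Airn, the noncoding RNA that silences Igf2r in cis, at 2.76 to 8.68. Rasgrf1, a guanine nucleotide exchange factor gene, was at 1.80, 3.91 and 2.42 in WT SSCs, 0 to 1.92 in mutant SSCs and at most 0.0136 in OPCs and was not called by edgeR (WT SSCs against OPCs, adjusted p = 0.063). It was called in WT in 7 of the 26 fits, among them DESeq2 (adjusted p = 0.0069), the bias-adjusted test (0.020) and a fit of only the 2 groups (0.011). The zinc finger gene Zim1, the placental growth regulator Phlda2, the transporter gene Slc22a18, the neurabin gene Ppp1r9a, the ankyrin repeat gene Asb4 and the splicing factor gene Zrsr1 were between 0 and 17.7 normalised CPM in all libraries and were not called by edgeR. DESeq2 called Zim1 in +/1013 and Phlda2 in 1013/1013 between SSCs and OPCs, and Asb4 was called in some fits with 1 library left out.

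A further 42 imprinted genes and 23 regulators of imprints were looked up as context. Of 37 further imprinted genes tested between SSCs and OPCs, 4, 7 and 8 were called in WT, +/1013 and 1013/1013 (10.8%, 18.9% and 21.6%, beside 11.4%, 12.5% and 13.1% of all genes). Axl, a receptor tyrosine kinase gene, and Dcn, the gene of the matrix proteoglycan decorin, were called in all 3 genotypes. Axl was at 142 ± 89.6 (SD, n = 3) in WT OPCs and 797 ± 117 in WT SSCs, and Dcn at 7517 ± 2694 and 20610 ± 5097. Qpct, Cd81 and Dio3 also rose and Gab1 and Gnas fell in SSCs of both mutant genotypes, H13 and Commd1 fell in WT, and Ddc fell in 1013/1013. Dio3, the far end of the Dlk1-Dio3 cluster, was at 1.06 to 10.7 in SSCs and at most 0.761 in OPCs. Gnas was at 2.05 to 7.88 in SSCs and 8.25 to 25.3 in OPCs. Igf2, the growth factor gene next to H19, was at 0.851 to 4.12 in all libraries, and Igf2r at 21.6 to 73.0. In SSCs Igf2 was at 0.851 to 1.60 in WT, 1.73 to 4.12 in +/1013 and 3.02 to 3.96 in 1013/1013. Its mutant SSC libraries thus all lay above WT, a pattern that 10.2% of all genes tested had. None of the 42 was called by edgeR between genotypes in either cell type or in the interactions. In SSCs against WT 9 (+/1013) and 12 (1013/1013) had an unadjusted p under 0.05 (24.3% and 32.4%, beside 17.3% and 18.3% of all genes) and DESeq2 called 6 in each. Between the mutants these were 2 and 0, in the interactions 5 and 10 (13.5% and 27.0%, beside 10.6% and 15.0%) with 2 and 8 called by DESeq2, and in OPCs at most 2 with 0 called by DESeq2. The numbers of all genes called by DESeq2 in these comparisons are given above. Shares of all genes are not, so the DESeq2 calls are not read as particular to these genes.

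Of 21 regulators tested, 2 were called in each genotype between SSCs and OPCs (9.52%, below the 11.4%, 12.5% and 13.1% of all genes). Trim28, a corepressor that works with ZFP57, fell in SSCs in all 3, with log2 differences of -0.85 ± 0.25 in WT (edgeR adjusted p = 0.040), -1.60 ± 0.25 in +/1013 (0.00091) and -1.78 ± 0.29 in 1013/1013 (0.0015). Its levels were 93.1 to 127 in the 9 OPC libraries and 25.8 to 69.6 in the 8 SSC libraries. Tet3, a methylcytosine dioxygenase gene, rose in WT SSCs, Dnmt3a, a de novo DNA methyltransferase gene, fell in +/1013 SSCs, and Smchd1, a chromatin protein gene of silenced alleles, fell in 1013/1013 SSCs. Between genotypes and in the interactions no regulator was called by edgeR. The DESeq2 calls of regulators that follow likewise have no share of all genes beside them and are not read as particular to regulators. In SSCs against WT 5 (+/1013) and 6 (1013/1013) had an unadjusted p under 0.05 (23.8% and 28.6%, beside 17.3% and 18.3% of all genes) and DESeq2 called 1 and 4, between the mutants 1 and 0, in the interactions 2 and 6 with 0 and 1 called by DESeq2, and in OPCs 0 by either measure. In SSCs 18 of the 21 were lower in each mutant genotype than in WT, with median log2 changes of -0.59 and -0.69 beside -0.11 and -0.23 over all genes. The share of all genes that were lower is not given here. WT SSC replicate 3 was leukocyte-rich, and the number of genes with a count separated WT from mutant SSC libraries, as given above. The part of these in the levels of the regulators was not tested.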

How the data were processed

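The 17 libraries measure polyadenylated RNA. The authors made cDNA with a SMART-Seq v4 kit, built libraries by Nextera XT tagmentation, which marks no strand, kept paired reads of at least 50 bp, checked them with FastQC, aligned them to mm10 with STAR and counted them per gene. Versions, annotation release and counting settings are not given in the sources used here. The deposited values are whole-number counts per gene, not normalized. Summary lines for reads on no gene, on several genes or not uniquely placed (1.15% to 4.15%, 1.87% to 3.93% and 5.10% to 10.4%, as percentages of the sum of genes and these lines) were left out.

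Of 55335 identifiers, 55154 matched GENCODE M21 without their version number; gene spans, exon lengths and overlaps come from it, sequences from RefSeq (GRCm38.p6). In R 4.3.3, edgeR 4.0.16 (limma 3.58.1) was run with filterByExpr, TMM and the quasi-likelihood test (legacy = TRUE), without covariates: all 17 libraries for SSCs against OPCs and the interactions, and each cell type alone for genotypes, with Benjamini-Hochberg adjustment over all genes tested. A gene was called at an adjusted p under 0.05 and at least 1.5-fold. Values are TMM-normalised CPM over all 17 libraries, per kb of exon where stated. The standard error is the log2 fold change divided by the square root of F. DESeq2 1.42.0 and other settings were alternatives. The fits were tested on simulated counts with 200 changed genes.

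Log2 changes with tests are given for called members and, where fewer than 5 were called, for those of smallest p up to 5; other members by levels, and of the context genes those called, Igf2, Igf2r and Gnas. The members, lists and tests were chosen with earlier results of these data known.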

Additional observations from a re-analysis of the deposited data

How the results depend on the processing

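Of 1258 values of the 59 named member results under the alternatives, 1158 kept their direction and their side of the threshold, 63 lost a call, 37 gained one and none changed direction; for Ascl2, 1 fit had no counts in either group and gave no value. For SSCs against OPCs, members called numbered 3, 8 and 6 in WT, +/1013 and 1013/1013. DESeq2 called 9 in WT and 11 in 1013/1013, the bias-adjusted quasi-likelihood test 7 in WT, a fit of only the 2 groups 5 in WT and 3 in 1013/1013, and a minimum of 10 counts in every library, which leaves fewer genes tested, 5 in +/1013. With 1 library left out the counts ranged from 1 to 6, 4 to 8 and 4 to 7. Without the 3 leukocyte-rich libraries, an alternative chosen after seeing the data, they were 3, 9 and 5. Shares of all genes called under these alternatives are not given here, so the member counts cannot be weighed against them.

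For genotypes in SSCs, DESeq2 called 7 (+/1013), 9 (1013/1013) and 1 (1013/1013 against +/1013) members, a minimum of 10 counts in every library 1 in +/1013, and all 17 libraries in one fit 1 in 1013/1013, where edgeR called 0; with 1 library left out the counts ranged from 0 to 0, 0 to 6 and 0 to 4. Genotype comparisons in OPCs had 0 under every alternative run. For the interactions, DESeq2 called 1 and 3, and with 1 library left out the counts ranged from 0 to 0 and 0 to 2 for +/1013 and 1013/1013. The upper ends of the ranges for 1013/1013 SSCs came from a fit that left 1 library in that group. Shares of all genes called with 1 library left out are not given here, so these ranges cannot be weighed against them. Beyond the settings' own construction, the cause was not tested.

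The labels number the replicates, but correlations of the deviations of same-numbered libraries ran from -0.265 to 0.274 and in no pair of groups were all above 0.1, the value set for reading the numbers as pairs. With the number as a replicate block, 4, 7 and 4 members were called between SSCs and OPCs in WT, +/1013 and 1013/1013, and 0 in every genotype comparison and interaction. It ended the calls of Meg3 (adjusted p = 0.061) and Ndn (0.079) in 1013/1013 and of Usp29 (0.052) in +/1013. Depth limits members under 3 counts, and n = 2 in 1013/1013 SSCs limits every comparison with them.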
